A study of Homo sapiens with 8 samples.

Results

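Mitochondrial ribosomal proteins were taken as the genes of the genome-wide screen whose symbol starts with MRPL or MRPS followed by a number, and 77 of the 19114 genes in the table met this rule. The letter gives the subunit, so 48 genes named proteins of the large subunit and 29 named proteins of the small subunit. The screen was made in AsPC-1 cells, an established line of human pancreatic ductal adenocarcinoma that here carried Cas9 and the genome-wide Brunello guide library, with about 4 guides to a gene. On day 8 the pool was fixed, stained for Serpin B5 (maspin), which the study used as a readout of the transcription factor KLF5, and sorted into Serpin B5-low, bulk and Serpin B5-high bins that held about 20%, 70% and 10% of the cells. The bins came from 1 pool of cells and all cells in it carried the same Cas9 and guide library. The 3 groups were set apart by Serpin B5 staining, and each was made into its own sequencing library. A difference between these libraries thus cannot be told apart from one in staining. Each bin is 1 library, which leaves no replicate error, and no p-value is given here.

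The mitochondrial ribosome translates the few messenger RNAs that mitochondrial DNA encodes, all of which code for subunits of the respiratory chain complexes and of ATP synthase. Its RNAs are made inside the organelle, whereas its proteins are encoded in the nucleus, made on cytosolic ribosomes and imported. The small subunit reads the codon, and the large subunit forms the peptide bond beside the inner membrane, where the new proteins are inserted. Many of its proteins have relatives in bacterial ribosomes and others are found only in mitochondria. A guide that became rarer in the Serpin B5-low bin marks a gene whose loss was found less often among cells with little Serpin B5.

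The libraries held 90421905 to 102155005 reads, and guides to SERPINB5 itself had the highest low versus high score of all genes, at 7.08 on the log2 scale. Of the 308 guides to the 77 genes, 307 passed the filter on low counts. The guide left out, to MRPL48, had 0 reads in every bin, so that MRPL48 was scored on 3 guides and each of the other genes on 4. The median raw count of these guides was 1057, 1058 and 988.5 in low, bulk and high, and together they took 0.354% (95% Wilson interval 0.353% to 0.355%), 0.377% (0.376% to 0.378%) and 0.378% (0.376% to 0.379%) of all reads. These intervals cover counting error only. Reads are PCR copies without stated molecular identifiers and not independent molecules, so the spread given below is the SD over the guides of a gene. This SD is the spread of single guides and not the error of their mean. The median standard error of that mean over guides was 0.10 in low versus high for either subunit. Guide sequences are not in the table used here and none are shown.

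Guides to the mitochondrial ribosome were rarer in the Serpin B5-low bin than in either other bin, by a small amount that most of the genes shared. The gene score is the mean over guides of the log2 ratio of normalised counts between 2 bins, centred on the median guide that targets a gene. In low versus bulk the median score was -0.10 for the large subunit (interquartile range -0.15 to -0.030) and -0.071 for the small subunit (-0.14 to -0.046), beside -0.0037 over all 19113 genes tested (-0.062 to 0.061). A score below 0 was found for 38 of 48 large subunit genes and 28 of 29 small subunit genes, or 85.7% of the members, where 51.5% of all genes had one. All guides were below 0 for 23 of the 77 genes (17 large, 6 small), or 29.9%, beside 8.76% of all genes.

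In low versus high the median score was -0.084 for the large subunit (-0.20 to -0.017) and -0.069 for the small subunit (-0.18 to -0.014), beside 0.00097 over all genes (-0.099 to 0.11). The score was below 0 for 36 of 48 large and 22 of 29 small subunit genes, or 75.3% of the members beside 49.7% of all genes. All guides were below 0 for 16 genes (12 large, 4 small), or 20.8%, beside 11.2% of all genes. All guides were above 0 for 1 gene, MRPL9, where 11.4% of all genes had this pattern. Low versus high and low versus bulk share the low library, so an error in that library would move both.

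No member was past 0.5 in either direction in any comparison, a size that is a 1.41-fold difference. Over all genes, 1.86% were at or below -0.5 and 3.03% at or above 0.5 in low versus high. The shares were 0.0262% and 1.02% in low versus bulk, and 1.53% and 1.5% in high versus bulk. Just short of this size stood MRPL37, at -0.49 in low versus high and -0.47 in low versus bulk. At or below -0.25 in low versus high were 7 large and 2 small subunit genes, or 11.7% of the members beside 7.03% of all genes.

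**Figure D1:**
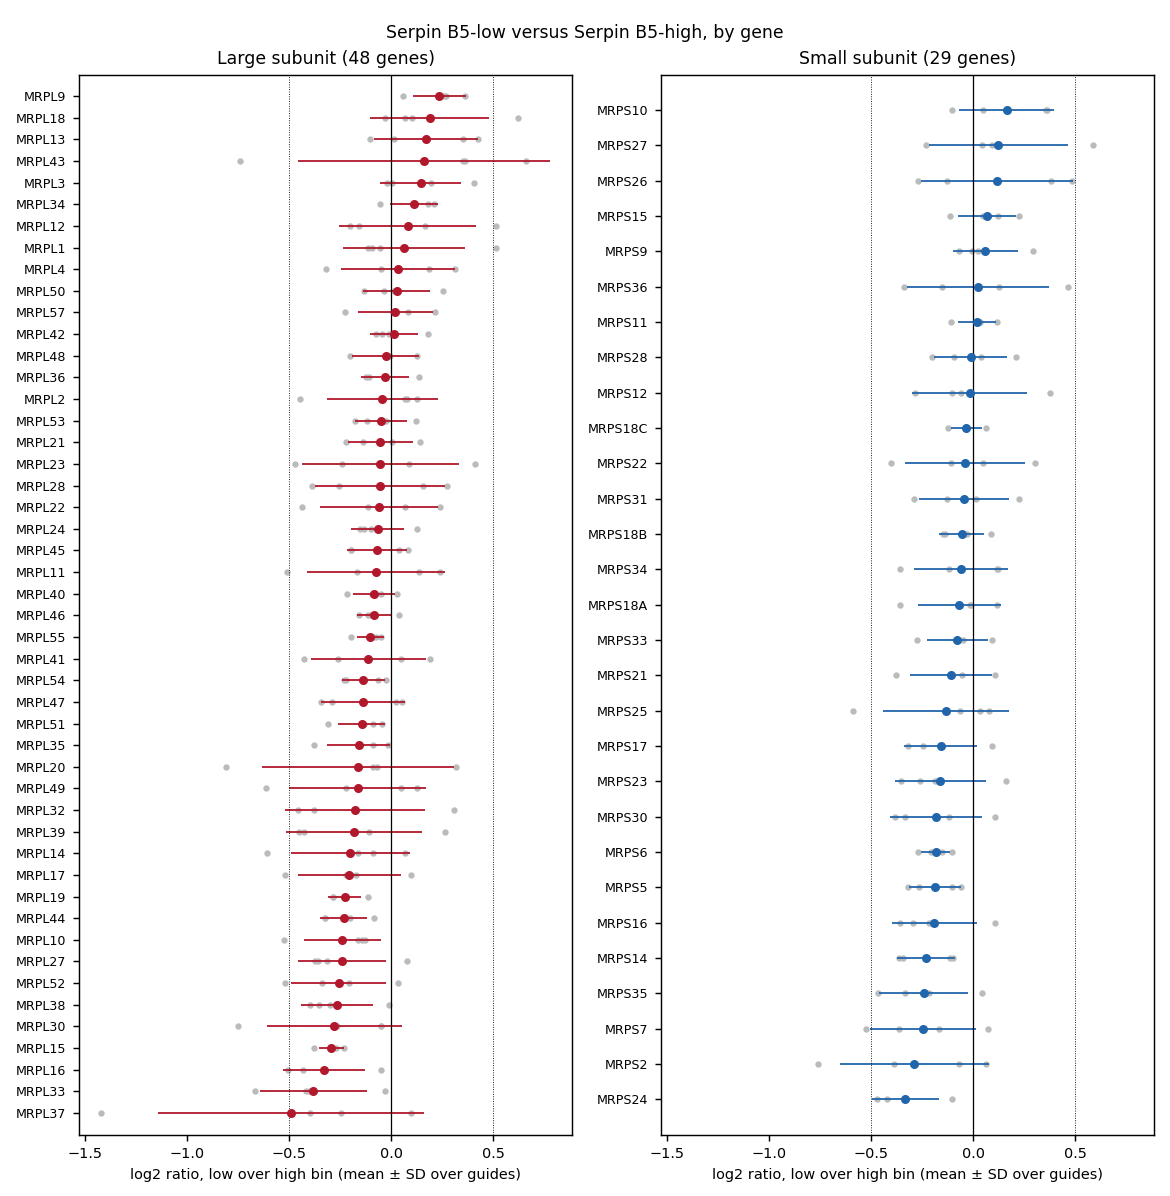
Each row is a gene, and the x axis gives its low versus high log2 ratio. Coloured points and bars are the mean and SD over guides, grey points are single guides, and dotted lines mark 0.5 in either direction. Large subunit scores run from -0.49 (MRPL37) to 0.24 (MRPL9) and small subunit scores from -0.33 (MRPS24) to 0.16 (MRPS10), with most points left of 0.

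High versus bulk showed no such shift with scores centred on gene-targeting guides. The median score was 0.013 for the large subunit and 0.026 for the small subunit, beside -0.0054 over all genes. Scores below 0 were found for 22 of 48 large and 14 of 29 small subunit genes, or 46.8% of the members beside 51.7% of all genes. All guides were below 0 for 3 genes, or 3.90%, beside 9.9% of all genes. All guides were above 0 for 3 genes as well, or 3.90%, beside 1956 of all 19113 genes. The sign of both medians depended on the processing, since the large subunit median was -0.0024 with total-count scaling and the small subunit median was -0.0044 once the score of neighbouring genes was subtracted. Centred on control guides, the medians were 0.038 (large) and 0.052 (small), beside 0.020 over all genes. With that centring the low versus bulk medians were -0.082 (large) and -0.050 (small), beside 0.017 over all genes.

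Read across the 3 bins, the low bin had the lowest normalised count for 53 of the 77 genes (32 large, 21 small), or 68.8%, beside 35.4% of all genes. It was the highest for 6 genes, all of the large subunit, or 7.79% beside 33.8% of all genes. The bulk bin was highest for 31 members, or 40.3% beside 26.9% of all genes, and the high bin for 40, or 51.9% beside 39.4%. The low bin was thus the lowest for most members, while the highest place was mostly split between the other bins. Mean normalised counts can order the bins otherwise, as for MRPL43, with 656, 610 and 673 in low, bulk and high.

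Single guides gave the same picture when they were set against the 994 non-targeting control guides, which cut no gene. In low versus high the central 95% of control guides ran from -0.28 to 0.33, and 70 of 307 member guides (22.8%) lay below it and 18 (5.86%) above it, beside 13.6% and 12.2% of all gene-targeting guides. In low versus bulk the range was -0.21 to 0.17, with 61 member guides (19.9%) below and 16 (5.21%) above, beside 9.26% and 15.2%. In high versus bulk 21 member guides (6.84%) lay below and 38 (12.4%) above, beside 9.32% and 15.4%. Member guides therefore lay below the control range more often than guides in general in both comparisons that hold the low bin, and above it less often in all 3. Control guides were more abundant in the bulk bin, with a median log2 level of 1.17 over the median gene-targeting guide. The control range was not matched for abundance, so shares outside it are read only beside those of all gene-targeting guides. The median control ratio was 0.0050 in low versus high, -0.021 in low versus bulk and -0.025 in high versus bulk. Guides to 1 gene share that gene and are not independent measurements of the sort.

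**Figure D2:**
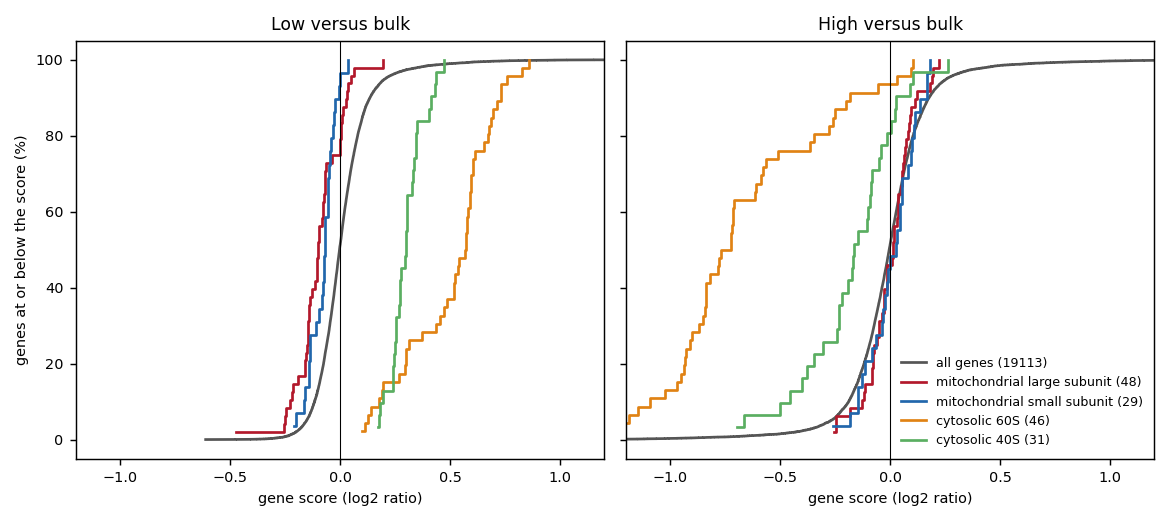
Cumulative share of genes (y axis, %) at or below a gene score (x axis, log2 ratio), for low versus bulk on the left and high versus bulk on the right. Both mitochondrial subunits lie left of all genes in low versus bulk, with medians of -0.10 and -0.071, and close to them in high versus bulk, while cytosolic 60S and 40S genes lie right of 0 in low versus bulk.

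Among large subunit genes, MRPL37, a protein found in mitochondria and not in bacteria (chromosome 1, 54200167 to 54225489, hg38), had the lowest low versus high score. Its mean normalised counts were 436 in the low, 524 in the bulk and 507 in the high bin, and its score was -0.49 ± 0.65 (SD, n = 4 guides). The spread came from guide 2, which had 40.4, 97.4 and 117 normalised counts and a ratio of -1.42, where the other guides stood at -0.25, 0.097 and -0.40. Without guide 2 the score was -0.18, and in low versus bulk it was -0.24 in place of -0.47. All 4 guides were below 0 in low versus bulk, so the direction of that comparison did not rest on guide 2, but its size did.

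The next lowest scores had narrower spreads. MRPL33, the relative of bacterial L33 (chromosome 2, 27771719 to 27779733), had 584, 643 and 722 normalised counts in the low, bulk and high bins, and a low versus high score of -0.38 ± 0.26. MRPL16, which lies near the tRNA path of the large subunit (chromosome 11, 59806140 to 59810778), had 675, 735 and 838 counts and a score of -0.33 ± 0.20. Both genes had their lowest count in the low and their highest in the high bin, and all of their guides were below 0 in low versus high. MRPL15 had 1427, 1598 and 1743 counts and a score of -0.29 ± 0.062, the smallest SD of these genes, with guides at -0.29, -0.23, -0.38 and -0.27. MRPL30 had 1095, 1204 and 1270 counts and a score of -0.28 ± 0.33, and stood at -0.12 without its furthest guide.

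At the upper end, MRPL9, the relative of bacterial L9 (chromosome 1, 151759647 to 151763496), had 1677, 1612 and 1451 normalised counts and a low versus high score of 0.24 ± 0.13. Its guides stood at 0.057, 0.26, 0.36 and 0.27, the only member with every guide above 0. MRPL18 had 1106, 1075 and 1044 counts and a score of 0.19 ± 0.29, and MRPL13 had 1119, 1194 and 1047 and a score of 0.17 ± 0.25. MRPL3, a gene of inherited mitochondrial disease whose protein reaches towards the peptidyl transferase centre, had 858, 813 and 799 counts and a score of 0.14 ± 0.20. MRPL43 had 656, 610 and 673 counts and a score of 0.16 ± 0.62, with guides from -0.74 to 0.66. Thus the 5 highest scores of the large subunit were nearer to 0 than its 5 lowest ones, and among the 5 highest only that of MRPL9 was larger than its spread over guides.

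The large subunit carries a stalk that recruits translation factors, and a difference among the genes of the stalk was not tested. MRPL10, which anchors the stalk (chromosome 17, 47823272 to 47831541), had 894, 1007 and 1037 normalised counts, with scores of -0.24 ± 0.19 in low versus high and -0.26 ± 0.31 in low versus bulk, all guides below 0 in both. Without its furthest guide MRPL10 stood at -0.14 and -0.11 in the same order. MRPL12, which forms the stalk itself, stood at 0.080 ± 0.33 in low versus high and 0.0042 ± 0.053 in low versus bulk. MRPL11, at the base of the stalk, stood at -0.075 ± 0.34 and -0.067 ± 0.16. The scores of the latter pair were well within their spread over guides. MRPL45, which holds the ribosome at the inner membrane, had scores of -0.069 ± 0.15 and 0.012 ± 0.15. MRPL44, which has the fold of an RNase III enzyme and is mutated in an inherited cardiomyopathy, had -0.23 ± 0.12 and -0.11 ± 0.089, with all guides below 0 in both. MRPL42, a large subunit protein once also listed as a small subunit protein, had 0.012 ± 0.12 and -0.067 ± 0.095.

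In low versus bulk the lowest large subunit genes after MRPL37 were MRPL10 and MRPL14 (chromosome 6, 44113451 to 44127452), the latter with 663, 789 and 781 normalised counts. MRPL14 had a low versus bulk score of -0.25 ± 0.033 over 4 guides, all below 0, the smallest SD of any large subunit gene in that comparison, and -0.24 without its furthest guide. The highest were MRPL43 at 0.19 ± 0.27, MRPL3 at 0.060 ± 0.082 and MRPL9 at 0.050 ± 0.13, each within its spread. In high versus bulk the lowest were MRPL18 (-0.26 ± 0.56), MRPL13 (-0.25 ± 0.26) and MRPL4 (-0.25 ± 0.34), and the highest were MRPL33 (0.22 ± 0.18), MRPL20 (0.19 ± 0.29) and MRPL16 (0.19 ± 0.19). The genes at both ends of high versus bulk thus had scores about as large as the spread over their own guides, or smaller.

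Among small subunit genes, MRPS24, the relative of bacterial S3 (chromosome 7, 43866558 to 43869517), had the lowest low versus high score. It had 1500, 1672 and 1920 normalised counts in the low, bulk and high bins, and a score of -0.33 ± 0.16, with guides at -0.42, -0.47, -0.10 and -0.33. MRPS2 (chromosome 9, 135499965 to 135504673) had 599, 645 and 746 counts and a score of -0.29 ± 0.37. MRPS7 (chromosome 17, 75261879 to 75266376), a protein of the head of the subunit, had 1910, 2000 and 2246 counts and a score of -0.25 ± 0.26. All 3 had their lowest count in the low and their highest in the high bin. They were the 3 highest small subunit genes in high versus bulk, at 0.17 ± 0.085, 0.18 ± 0.38 and 0.17 ± 0.17. Both comparisons hold the high library, so these places are not independent of the low versus high scores. MRPS35 followed at -0.24 ± 0.22 in low versus high, and MRPS14 at -0.23 ± 0.14 with all guides below 0. Without their furthest guide, MRPS2 stood at -0.13 and MRPS7 at -0.15.

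The highest small subunit score was that of MRPS10 (chromosome 6, 42206807 to 42217861), with 1271, 1295 and 1124 normalised counts and a low versus high score of 0.16 ± 0.23. MRPS27, a pentatricopeptide repeat protein, followed at 0.12 ± 0.34, MRPS26 at 0.11 ± 0.37, MRPS15 at 0.068 ± 0.14 and MRPS9 at 0.059 ± 0.16. None of these was larger than its spread over guides. In each of them the low versus bulk score was below 0, between -0.099 and -0.0052, and the high versus bulk score was lower still, between -0.26 and -0.063. These comparisons share the bulk library, and their values are set side by side only.

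In low versus bulk the lowest small subunit genes were MRPS6, MRPS14 and MRPS24. MRPS6 (chromosome 21, 34073578 to 34143030) had 711, 820 and 815 normalised counts and a low versus bulk score of -0.21 ± 0.064, with guides at -0.19, -0.27, -0.13 and -0.25. MRPS14 had -0.20 ± 0.15 and MRPS24 had -0.16 ± 0.21. MRPS6 and MRPS14 had all guides below 0, and the score of MRPS6 was over 3 times its spread. MRPS18B, at 0.035 ± 0.24, was the only small subunit gene above 0, and next to it stood MRPS31 at -0.0031 ± 0.087 and MRPS9 at -0.0052 ± 0.067.

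MRPS12, a protein of the decoding centre, had 1502, 1606 and 1573 normalised counts and scores of -0.018 ± 0.28 in low versus high and -0.054 ± 0.20 in low versus bulk. MRPS16, whose loss causes an inherited mitochondrial disease, stood at -0.19 ± 0.21 and -0.056 ± 0.077, and MRPS22, another disease gene, at -0.041 ± 0.30 and -0.043 ± 0.11. In low versus bulk each of these 3 genes was within its spread over guides.

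Some symbols do not tell the place of the protein. MRPS18A and MRPS30 are named for the small subunit but lie in the large one, and MRPS36, now called KGD4, belongs to the alpha-ketoglutarate dehydrogenase complex and not to the ribosome. MRPS18A had a low versus high score of -0.069 ± 0.20 and MRPS30 one of -0.18 ± 0.22. Both lay inside the interquartile ranges of the large and of the small subunit, so the scores do not tell their place. The relatives of MRPS18A that stay in the small subunit, MRPS18B and MRPS18C, had -0.058 ± 0.11 and -0.034 ± 0.076. MRPS36 had 0.024 ± 0.35 in low versus high, -0.16 ± 0.17 in low versus bulk and -0.18 ± 0.52 in high versus bulk, with all guides below 0 in low versus bulk. With these genes placed by structure the medians in low versus high were -0.084 and -0.069 for the large and the small subunit.

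The large subunit median minus the small subunit median was -0.015 in low versus high, -0.032 in low versus bulk and -0.014 in high versus bulk. Over the alternatives it ranged from -0.042 to -0.0019, from -0.036 to -0.026 and from -0.020 to 0.015 in the same order, so that only the last changed sign. In low versus high the small subunit scores, from -0.33 to 0.16, lay wholly within the range of the large subunit scores, from -0.49 to 0.24. With 1 library per bin, the difference was not tested.

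Bulk abundance set the subunits further apart, by an amount that depended on the processing. It is the log2 level of a gene's guides in the bulk bin over the median gene-targeting guide, and it depends on how many copies of each guide the library held and on how many cells were lost by day 8, which cannot be told apart here since no earlier sample was analysed. The median was -0.25 for the large subunit (interquartile range -0.64 to 0.20) and 0.24 for the small subunit (-0.34 to 0.51), a difference of -0.49, beside -0.052 over all genes (-0.48 to 0.42). The difference was -0.20 without each gene's furthest guide and -0.30 with neighbouring genes subtracted, and it kept its sign in each of the alternatives run. At or below -1 were 3 large subunit genes and no small subunit gene, or 3.90% of the members beside 6.24% of all genes. Non-targeting control guides had a median of 1.17, above the median of either subunit and of all genes.

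The lowest large subunit genes in bulk abundance were MRPL20 (-1.53 ± 1.27), MRPL37 (-1.35 ± 1.37), MRPL43 (-1.30 ± 1.77) and MRPL1 (-0.94 ± 1.59), and each had guides that differed widely. In MRPL20, the relative of a bacterial protein needed to assemble the large subunit, guide 1 stood at -3.40 and the other guides between -1.21 and -0.55. The highest were MRPL48 (0.99 ± 0.62), MRPL17 (0.86 ± 0.53) and MRPL21 (0.78 ± 0.81). The value of MRPL48 is a mean over 3 guides, without the guide that had 0 reads in every bin, and so depends on the count filter. In the small subunit the lowest were MRPS2 (-0.75 ± 0.41), MRPS36 (-0.59 ± 0.88), MRPS34 (-0.59 ± 0.79) and MRPS18C (-0.46 ± 1.00), and the highest were MRPS7 (0.88 ± 0.39), MRPS33 (0.82 ± 0.43) and MRPS11 (0.77 ± 0.34). MRPS2 and MRPS7, at opposite ends in abundance, both had low versus high scores near the bottom of their subunit.

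Abundance and the low versus high score had little relation across the members. Pearson's r was 0.071 and Spearman's rho 0.018 over the 77 genes, beside -0.12 and -0.065 over all genes, which are descriptions across genes that share 3 libraries. In low versus bulk the median score of the 12 large subunit genes with an abundance between -1 and -0.5 was -0.13, beside 0.0080 over all genes of that class, and that of the 8 above 0.5 was -0.081, beside -0.014. Within a gene, the guide with the fewest counts in the bulk bin had the lower low versus high ratio in 36 of 77 members (46.8%), beside 46.7% of all genes. Median low versus bulk scores were below 0 in every abundance class of either subunit that held a member, with the exception of the 3 large subunit genes at or below -1, where the median was 0.028, beside 0.096 over all genes of that class.

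**Figure D3:**
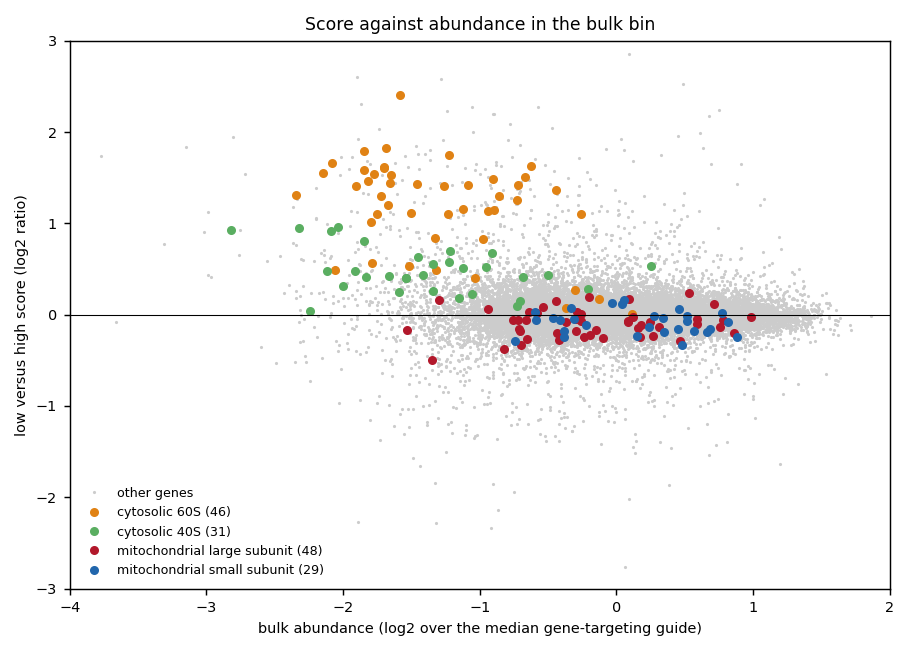
Each point is a gene, with abundance in the bulk bin on the x axis (log2 over the median gene-targeting guide) and the low versus high score on the y axis (log2 ratio), and 4 genes, none of them ribosomal, lie outside the axes. The mitochondrial genes (red and blue) lie in a band near 0 across their range of abundance, from -1.53 to 0.99, whereas the cytosolic 60S genes (orange) reach 2.41.

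The cytosolic ribosome, which makes all proteins encoded in the nucleus, went the other way. Ordered by score with bulk set to 0, the low bin was highest for 46 of 46 cytosolic 60S genes and 31 of 31 cytosolic 40S genes. The median low versus high score was 1.31 for 60S and 0.44 for 40S genes, and in low versus bulk it was 0.57 and 0.30. Both were also rare in the bulk bin, with median abundances of -1.39 and -1.42. No mitochondrial ribosomal protein gene reached the median of either cytosolic subunit in low versus high, the highest being MRPL9 at 0.24.

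Genes that serve mitochondrial translation and lack an MRP symbol were taken from lists by their known function, and their counts below 0 in low versus bulk stand beside 51.5% of all genes. Of 6 other mitochondrial ribosomal proteins, 6 (100%) had a low versus bulk score below 0 (median -0.065), from DAP3 at -0.21 to AURKAIP1 at -0.0032. The 16 mitochondrial tRNA synthetases, which charge tRNAs for this ribosome, had a median of -0.12 with 14 below 0 (87.5%), from LARS2 at -0.23 to HARS2 at 0.034. The 17 genes of mitochondrial RNA synthesis and decay had -0.085 with 14 below 0 (82.4%), from PNPT1 at -0.24 to POLG at 0.11. Each of these 3 lists had a larger share below 0 than genes in general.

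The 19 translation factors and regulators had a median low versus bulk score of -0.074 with 13 below 0 (68.4%), from OXA1L, the insertase that takes new proteins into the inner membrane, at -0.37 to SLIRP at 0.079. The 24 assembly factors had -0.046 with 16 below 0 (66.7%), from WBSCR16 at -0.29 to MTG2 at 0.085. The 37 nuclear-encoded subunits of complex I, the respiratory chain complex to which the mitochondrial ribosome supplies the most subunits, had -0.013 with 22 below 0, or 59.5% beside 51.5% of all genes. In low versus high the complex I median was 0.052 with 15 of 37 below 0, or 40.5% beside 49.7% of all genes, so that both shares were near those of genes in general.

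**Figure D4:**
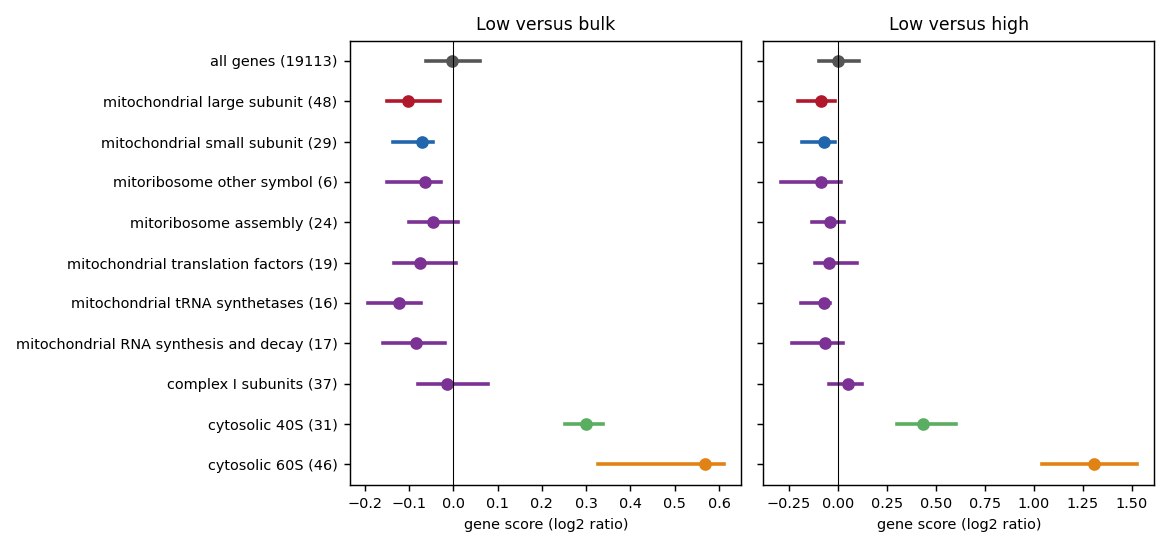
Median (point) and interquartile range (bar) of the gene score (x axis, log2 ratio) for each group, with the number of genes in brackets, in low versus bulk on the left and low versus high on the right. The ribosomal proteins, tRNA synthetases and RNA genes of mitochondria have medians from -0.12 to -0.065 in low versus bulk, complex I subunits lie at -0.013, and cytosolic 40S and 60S genes at 0.30 and 0.57.

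The genes lie apart in the genome, the large subunit genes on 20 chromosomes and the small subunit genes on 18. The 20 tested genes nearest to each member had a median low versus bulk score whose own median was -0.0021 around large subunit genes and -0.0068 around small subunit genes, close to that of all genes. In low versus high these medians were -0.0034 and -0.023.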

How the data were processed

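The authors deposited raw read counts per guide of the genome-wide screen in 1 table, with no normalization; per the study's methods guides were amplified from genomic DNA in a single PCR step and the screen was analysed with MAGeCK, which was not used here. The build hg38 is named in the submitters' processing notes. Tables of a smaller transcription factor library were not used here.

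From the deposited counts, the 3 libraries were scaled by median-ratio size factors. Guides with a mean normalised count under 30 were left out, which kept 76980 of 77441 guides and 994 of 1000 controls. The guide ratio was log2((a + 5)/(b + 5)) of the normalised counts, centred on the median gene-targeting guide, and the gene score its mean over at least 2 guides. Fold changes are on this scale, which understates those of rare guides. Total counts were 102155005 (low), 96310376 (bulk) and 90421905 (high). With 1 library per bin no test across genes was possible, so counts and medians of members were set beside those of all 19113 genes tested. Scoring was tested on simulated data. Gene positions are those of RefSeq on GRCh38. 

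Named genes were the 5 highest and 5 lowest of each subunit in low versus high, the 3 highest and 3 lowest in low versus bulk and in high versus bulk, and the 4 lowest and 3 highest in bulk abundance. To these were added genes of the stalk, decoding centre and membrane anchor, disease genes, and genes whose symbol and place differ, with the lowest and highest gene of each related list. The members and lists were chosen with earlier results of these data known. Alternatives varied the scaling, centring, pseudocount, count filter, averaging of guides, member assignment, neighbouring genes and threshold. Analyses used Python 3.11.15, numpy 2.4.6, pandas 2.3.3, scipy 1.17.1 and matplotlib 3.10.9.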

Additional observations from a re-analysis of the deposited data

How the results depend on the processing

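Both subunits kept median scores below 0 in low versus high (large -0.11 to -0.055, small -0.078 to -0.033) and in low versus bulk (large -0.12 to -0.069, small -0.083 to -0.043) under each alternative run. The number of genes below 0 in low versus bulk, a count added after seeing the data, ranged from 36 to 40 in the large and from 25 to 32 in the small subunit, where the 32 was of 33 genes after others were added. In low versus high, also added, it ranged from 32 to 38 and from 20 to 25. High versus bulk medians changed sign to -0.0024 (large) with total-count scaling without centring, and to -0.0044 (small) with neighbouring genes subtracted. They rose to 0.038 (large) and 0.052 (small) when centred on control guides, where the median of all genes was 0.020. Genes at or below -0.5 in low versus high, 0 in both subunits, became 1 large subunit gene with a pseudocount of 1 and 1 with neighbours subtracted, and 7 large and 2 small at -0.25. Centred on control guides, bulk abundance was -1.42 (large) and -0.93 (small), and the median of all genes moved from -0.052 to -1.23. With total counts the median of all genes moved to -0.29. The abundance difference between the subunits, -0.49, ranged from -0.50 to -0.20. The causes of these changes were not tested. No paired analysis was possible because each bin holds 1 library, and no library could be left out. The absence of a replicate sort limits each value given here.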
